A study of Homo sapiens with 2 samples.

Results

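The subunits of oxidative phosphorylation are the proteins that build the respiratory chain and the ATP synthase in the inner mitochondrial membrane. They were picked by the gene names of the count matrix: names starting with NDUF and a letter of A, B, C, S or V followed by a digit, the 4 SDH genes, names starting with UQCR, CYC1, COX4 to COX8, names starting with ATP5F, ATP5M or ATP5P, and all protein genes of the mitochondrial genome. This gave 106 of 38606 genes: 87 nuclear protein genes, 13 mitochondrial protein genes and 6 non-coding neighbours that share a subunit's name (NDUFB2-AS1, UQCRB-AS1, NDUFV1-DT, NDUFV2-AS1, UQCRFS1-DT and NDUFA6-DT). NDUFAB1, the acyl carrier protein of complex I, is not matched by these patterns and was counted with the assembly factors.

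Complexes I to IV pass electrons from NADH and succinate to oxygen, and complexes I, III and IV pump protons as they do so. Complex V, the ATP synthase, uses the proton gradient to make ATP. Complexes I, III, IV and V are built from nuclear and mitochondrial gene products together, while complex II is wholly nuclear, so the transcripts of 2 genomes have to be read side by side. In cultured stromal cells much of the ATP comes from glycolysis, which is why glycolytic genes are shown beside the subunits.

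The cells were mesenchymal stem cells from human adipose tissue, bought commercially. They were grown to near confluence and starved overnight, and then either left untreated or given transforming growth factor beta 1 (TGFB1), a secreted factor that activates fibroblasts, at 10 ng/mL for 24 hours. Both groups shared the starvation, the trypsin detachment and the freezing before 10x single-cell sequencing of polyadenylated RNA. Each condition was 1 library, and the labels do not say whether the cells came from 1 donor, so no difference between the libraries could be tested against a spread between cultures: the intervals below cover counting error only and compare these libraries, not the conditions.

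There were 8101 untreated cells, with 169011524 unique molecular identifiers (UMIs, 1 per captured transcript) in all and 19249 in the median cell, and 12555 TGFB1 cells, with 208991941 in all and 15134 in the median cell. The libraries shared 18 cell barcodes. The stromal marker COL1A1 was high in both libraries, at 6862 and 9412 CPM, which are the UMIs of a gene for 1000000 UMIs of the library. COL1A2 had 7622 and 9179 CPM, THY1 800 and 610 CPM, NT5E 282 and 154 CPM, and PDGFRB 103 and 89.1 CPM. ENG, also a stromal marker, was low at 6.67 and 7.85 CPM. The fat cell marker ADIPOQ had no UMI in either library, and the 4 endothelial, 4 leukocyte and 3 erythroid markers checked were all below 1 CPM. Of the epithelial and muscle markers, KRT18 reached 35.1 CPM in untreated and 80.2 CPM in TGFB1 cells, KRT8 reached 2.36 and 2.28 CPM, and MYH3 2.08 and 1.35 CPM.

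Nuclear subunit genes are known for promoters that bind nuclear respiratory factor 1 (NRF1), ETS-family factors such as GABP, and YY1. Promoter stretches are shown here because the letters of such sites were more frequent among members than among all genes, though not every member held them. RefSeq promoters (GRCh38.p14, from 250 bases before to 50 bases after a listed start) were found for 68 of the 87 nuclear members, 9 of which have more than 1 listed start. Below are the 150 bases before the RefSeq start of 4 members, with matches in capitals to GCGCANGCG (NRF1), CCGGAAG (ETS) or AANATGGC (YY1) on either strand, which can overlap one another. ATP5PO and SDHD had the lowest ratio of TGFB1 to untreated in complexes V and II, NDUFB4 had the highest in complex I, and UQCR11 held several matches. GENCODE release 29 has genes that begin further upstream: its outermost start lies within the printed stretch for SDHD, NDUFB4 and UQCR11, and beyond it for ATP5PO, whose stretch is thus inside the GENCODE gene.
ATP5PO, chr21:33915805-33915954, minus strand: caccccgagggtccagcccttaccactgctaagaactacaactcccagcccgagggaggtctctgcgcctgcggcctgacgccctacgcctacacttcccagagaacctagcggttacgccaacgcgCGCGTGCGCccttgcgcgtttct
SDHD, chr11:112086723-112086872, plus strand: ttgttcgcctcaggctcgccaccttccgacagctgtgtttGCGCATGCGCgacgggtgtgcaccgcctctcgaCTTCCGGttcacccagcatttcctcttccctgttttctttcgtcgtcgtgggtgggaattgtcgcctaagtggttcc
NDUFB4, chr3:120596186-120596335, plus strand: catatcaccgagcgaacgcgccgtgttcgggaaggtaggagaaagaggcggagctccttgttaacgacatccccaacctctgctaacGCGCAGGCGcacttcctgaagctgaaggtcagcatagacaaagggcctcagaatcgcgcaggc
UQCR11, chr19:1605463-1605612, minus strand: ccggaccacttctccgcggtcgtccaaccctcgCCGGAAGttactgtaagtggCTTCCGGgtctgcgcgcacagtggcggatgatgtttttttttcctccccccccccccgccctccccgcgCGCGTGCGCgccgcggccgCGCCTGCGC

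Over the whole 300-base windows, the NRF1 letters were present in 23 of 68 members (33.8%) and in 9.02% of 27305 genes with a RefSeq promoter. The ETS letters were present in 30.9% of members and 12.2% of all genes, and the YY1 letters in 38.2% and 7.97%. At least 1 of the 3 was present in 72.1% of members, in 24.9% of all genes and in 32.9% of protein-coding genes. Among protein-coding genes the single shares were 12.7% for the NRF1, 16.7% for the ETS and 9.85% for the YY1 letters. By complex, the NRF1 letters were held by 2 of 3 members of complex II, 4 of 7 of complex III, 6 of 13 of complex V, 9 of 31 of complex I and 2 of 14 of complex IV. These counts are small, and a difference between complexes was not tested. Members with and without the letters differed little in their median log2 ratio of TGFB1 to untreated. It was -0.03 in the 22 measured members with the NRF1 letters and -0.07 in the 42 without. For the ETS letters it was -0.02 in 21 members with and -0.10 in 43 without. For the YY1 letters it was -0.004 in 26 with and -0.07 in 38 without. The factors' own genes were all within 1.5-fold: NRF1 had 28.1 CPM in untreated and 25.6 CPM in TGFB1 cells, GABPA, the DNA-binding part of GABP, had 20.1 and 17.0 CPM, and YY1 had 128 and 118 CPM.

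The nuclear subunits together took 15559 CPM of the untreated library and 15503 CPM of the TGFB1 library, a ratio of 0.996 (95% interval 0.995 to 0.998). The 13 mitochondrial genes took 26383 and 23985 CPM, a ratio of 0.909 (0.908 to 0.910). The nuclear sum was thus nearly level, and the mitochondrial sum was lower in the TGFB1 library with library totals as the scale, but both were above 1 with the trimmed mean of M values (TMM, 1.11 and 1.01) or median-of-ratios size factors (1.14 and 1.04). The ratio of the genomes does not depend on that scale: there were 170 mitochondrial UMIs per 100 nuclear subunit UMIs in untreated and 155 in TGFB1 cells, 0.912 times as many. That ratio, and the level nuclear sum, depended on which of the authors' cell clusters were counted. The large clusters were nearly confined to 1 library. Cluster 1 held 3687 untreated and 56 TGFB1 cells, cluster 2 held 3094 and 46, and cluster 4 held 11 and 2421. Leaving out such a cluster removes cells almost only from 1 library. Without cluster 1, the largest of the untreated library, the ratio of the genomes was 1.06 and the nuclear ratio 0.894; without cluster 4 they were 0.997 and 0.932; and without cluster 2 they were 0.818 and 1.09.

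Of the 87 nuclear members, 80 reached 5 CPM in at least 1 library and are called measured here. The others were UQCRHL, ATP5MGL, COX4I2, COX6A2, COX6B2, COX7B2 and COX8C, and the 6 non-coding neighbours were below 5 CPM as well, with NDUFV2-AS1 the highest at 3.41 and 2.68 CPM. With library totals as the scale, no measured nuclear subunit was at least 1.5-fold higher in the TGFB1 library. Of all 10928 genes at 5 CPM or more, 8.45% were. Only 1 subunit (ATP5PO) was at least 1.5-fold lower, against 14.2% of all genes. With a lower bar, 4 subunits were at least 25% higher in the TGFB1 library (15.3% of all genes were) and 11 were at least 20% lower (28.2% of all genes were). The ratios of the members lay close together: 81.25% were inside that narrower range, compared with 56.45% of all genes at 5 CPM or more and 53.0% of the 1843 genes at 100 CPM or more.

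The median log2 ratio of the 80 members was -0.06 (quartiles -0.23 and 0.13), beside -0.10 over all genes. TMM factors add 0.155 to every log2 ratio and median-of-ratios factors 0.191, so members with a log2 ratio between -0.19 and 0 change sides with the scale: 33 members were above 0 with library totals, TMM factors put 54 there, and median-of-ratios factors 56. Against the median of all genes, the members' median was 0.04 higher on the log2 scale, which a change of scale cannot alter. That difference turned with the cells counted: it was -0.19 without cluster 1, -0.11 without cluster 4, 0.25 without cluster 2 and 0.01 with equal weight per cell.

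**Figure D1:**
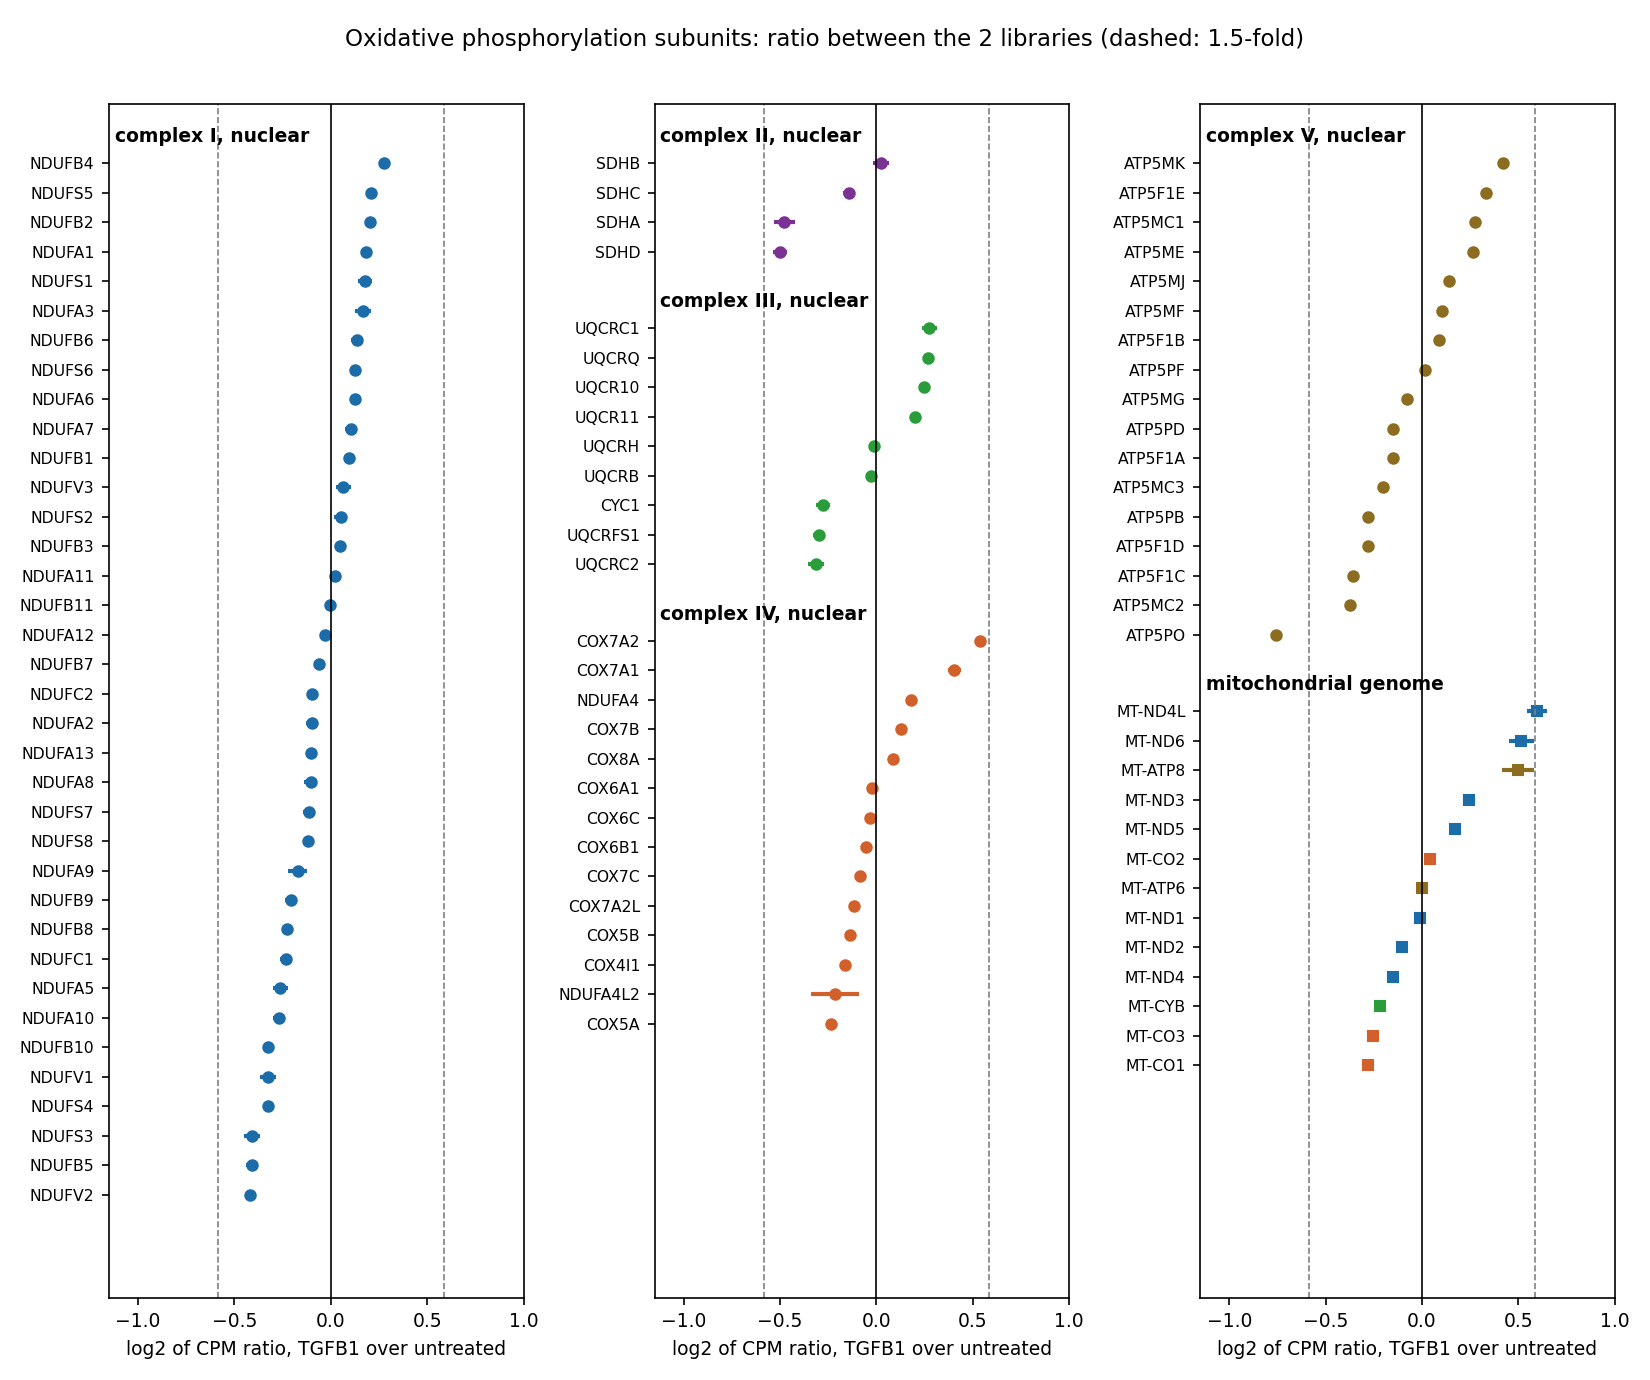
Log2 of the CPM ratio (TGFB1 over untreated library, library totals as the scale) for each of the 80 measured nuclear subunits by complex and the 13 mitochondrial genes (squares), with 95% counting intervals as bars where they are wider than the symbol. Dashed lines mark 1.5-fold, and ATP5PO and MT-ND4L are the members beyond them; other scales move all points together by 0.155 or 0.191.

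Complex I takes electrons from NADH. Its 36 nuclear subunits summed to 5145 CPM in untreated and 5001 CPM in TGFB1 cells, a ratio of 0.972, which becomes 1.08 with TMM and 1.11 with median-of-ratios factors. The 7 core subunits, which carry the flavin and the iron-sulfur clusters or lie next to them, had a lower ratio of sums (0.876) than the 29 supernumerary ones (0.986). NDUFV2, a core subunit with an iron-sulfur cluster, had 198 CPM in untreated and 148 CPM in TGFB1 cells, a ratio of 0.749 (0.737 to 0.760). NDUFB5, a membrane-arm subunit, had 107 and 80.6 CPM, a ratio of 0.752 (0.737 to 0.768). Both were lower in the TGFB1 library, and so were NDUFS3 (0.754), NDUFS4 (0.798), NDUFV1 (0.799) and NDUFB10 (0.799). The core was not uniform, since NDUFS1, the largest iron-sulfur subunit, was on the other side with 56.9 CPM in untreated and 64.3 CPM in TGFB1 cells.

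At the upper end of complex I, NDUFB4 had 185 CPM in untreated and 224 CPM in TGFB1 cells, a ratio of 1.21 (1.19 to 1.23). NDUFS5 had 254 and 293 CPM, a ratio of 1.16 (1.14 to 1.17). Both are supernumerary subunits. NDUFA13 and NDUFA11, the nuclear complex I genes with the most UMIs, had ratios near 1: 438 and 407 CPM for NDUFA13, and 370 and 376 CPM for NDUFA11.

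Complex II is succinate dehydrogenase, an enzyme of the tricarboxylic acid cycle as well as of the respiratory chain. Its 4 genes summed to 269 CPM in untreated and 227 CPM in TGFB1 cells, a ratio of 0.843 (0.832 to 0.854). This was the lowest ratio among the 5 complexes, and it was the only complex sum that stayed below 1 with TMM factors (0.938) and median-of-ratios factors (0.963). SDHD, a membrane anchor, had 83.7 CPM in untreated and 59.2 CPM in TGFB1 cells, a ratio of 0.707 (0.690 to 0.725), which was past 1.5-fold without cluster 1 (0.645). SDHA, the flavoprotein that oxidises succinate, had 33.7 and 24.2 CPM, a ratio of 0.718 (0.692 to 0.746). The other 2 genes were closer to 1: SDHC, the other anchor, had 98.6 and 89.4 CPM, and SDHB, the iron-sulfur subunit, had 53.0 and 53.9 CPM.

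Complex III passes electrons from ubiquinol to cytochrome c. Its nuclear subunits summed to 2008 CPM in untreated and 2103 CPM in TGFB1 cells, a ratio of 1.05 (1.04 to 1.05), which stayed above 1 under both other scales. Both nuclear electron carriers of the complex were on the lower side. CYC1, cytochrome c1, had 65.8 CPM in untreated and 54.3 CPM in TGFB1 cells, a ratio of 0.825. UQCRFS1, the Rieske iron-sulfur protein, had 107 and 87.2 CPM, a ratio of 0.814. UQCRC2, a structural core protein, had 60.1 and 48.3 CPM, a ratio of 0.805. Its partner UQCRC1 had 53.2 CPM in untreated and 64.5 CPM in TGFB1 cells, a ratio of 1.21 (1.18 to 1.24). The small subunits UQCRQ (258 and 311 CPM), UQCR10 (225 and 266 CPM) and UQCR11 (307 and 353 CPM) were higher in TGFB1 cells too. UQCRB and UQCRH, with the most UMIs of the nuclear genes of the complex, were nearly level at 470 and 460 CPM and at 461 and 457 CPM.

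Complex IV, cytochrome c oxidase, reduces oxygen. Its measured nuclear subunits, with NDUFA4 counted here because its protein belongs to complex IV despite its name, summed to 3690 CPM in untreated and 3800 CPM in TGFB1 cells, a ratio of 1.03, above 1 under both other scales. COX7A2, the widely expressed form of subunit 7A (chr6:75237675-75250323, minus strand), had 274 CPM in untreated and 398 CPM in TGFB1 cells, a ratio of 1.45 (1.43 to 1.47). It was the highest ratio of all 80 members, and it passed 1.5-fold with TMM (1.62) and median-of-ratios factors (1.66) and without cluster 0 (1.58) or cluster 2 (1.56). COX7A1, the form known from heart and skeletal muscle, had 69.0 and 91.2 CPM, a ratio of 1.32 (1.29 to 1.35). It was 1.51 with median-of-ratios factors. Both forms of subunit 7A were thus higher in the TGFB1 library, while COX7A2L, a related protein that helps to form supercomplexes, had 254 and 235 CPM.

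For the other tissue forms of complex IV the common form was expressed and its partner was at or near 0 in both libraries. COX4I1 had 461 and 412 CPM beside 1 and 3 UMIs of COX4I2, the lung form. COX6A1 had 286 and 281 CPM, and its muscle partner COX6A2 had no UMI, which allows up to 0.0178 CPM among untreated and 0.0144 CPM among TGFB1 cells. COX6B1 had 242 and 233 CPM, COX7B 176 and 193 CPM and COX8A 252 and 268 CPM, and their partners COX6B2, COX7B2 and COX8C stayed at 0.225 CPM or below. COX5A, at 157 CPM in untreated and 133 CPM in TGFB1 cells (0.849), had the lowest ratio of its measured nuclear subunits. NDUFA4 had 678 and 767 CPM, a ratio of 1.13.

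Complex V, the ATP synthase, held the only nuclear subunit beyond 1.5-fold with library totals as the scale. ATP5PO, the protein that joins the peripheral stalk to the catalytic head (chr21:33903453-33915980, minus strand), had 251 CPM in untreated and 149 CPM in TGFB1 cells, a ratio of 0.592 (0.583 to 0.601). It was 0.659 with TMM and 0.676 with median-of-ratios factors, the second of which is just inside 1.5-fold, as was the ratio without cluster 2 (0.675). The complex V sum was 4448 CPM in untreated and 4372 CPM in TGFB1 cells, a ratio of 0.983 that becomes 1.09 or 1.12 with the other scales, so 1 gene stood apart within a sum that was nearly level.

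By position in the enzyme, the 4 peripheral stalk genes had a ratio of sums of 0.839 and the 3 genes of the c ring one of 0.881. The 5 genes of the catalytic head and central stalk had 1.04, which was 0.875 without ATP5F1E, and the 5 small membrane subunits had 1.12. ATP5MC1, ATP5MC2 and ATP5MC3 make the same mature c protein from different genes, and they differed: ATP5MC2 had 376 CPM in untreated and 290 CPM in TGFB1 cells (0.771) and ATP5MC3 had 427 and 371 CPM (0.869), while ATP5MC1 had 140 and 170 CPM (1.21). In the head, ATP5F1E, the epsilon subunit, had 651 and 819 CPM, a ratio of 1.26 (1.249 to 1.268). ATP5F1C, the gamma subunit that turns inside the head, had 207 and 162 CPM, a ratio of 0.780. Among the membrane subunits ATP5MK, which helps to hold ATP synthase dimers together, had 237 and 318 CPM, a ratio of 1.34 (1.32 to 1.36). With median-of-ratios factors it passed 1.5-fold (1.53). ATP5MG was nearly level at 326 and 309 CPM, and ATP5MGL, its near copy, had 0.231 and 0.34 CPM. Reads shared with near copies or pseudogenes could not be assessed from the counts.

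The 13 mitochondrial genes are copied as long strands and cut into single messages, yet their ratios ran from 0.824 to 1.51. MT-CO1, the catalytic subunit of complex IV, had 6181 CPM in untreated and 5094 CPM in TGFB1 cells, a ratio of 0.824 (0.822 to 0.826). MT-CO3 had 5882 and 4925 CPM, a ratio of 0.837. MT-CO2, another mitochondrial subunit of the same enzyme, had 5182 and 5331 CPM, a ratio of 1.03, so the 3 did not move together. MT-CYB, cytochrome b of complex III, had 3318 and 2853 CPM, a ratio of 0.860. MT-ATP6, the proton channel subunit of the ATP synthase, had 2505 CPM in both libraries.

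Of the 7 mitochondrial complex I genes, MT-ND4 (1747 and 1572 CPM), MT-ND2 (326 and 304 CPM) and MT-ND1 (369 and 366 CPM) were at or below the untreated level. MT-ND5 (229 and 258 CPM) and MT-ND3 (589 and 697 CPM) were above it. MT-CO2, MT-ND1, MT-ND2, MT-ND4 and MT-ATP6 changed sides of 1 over the 19 alternatives tried, while the other 8 genes did not.

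The genes with the fewest UMIs had the highest ratios. MT-ND4L had 27.1 CPM in untreated and 41.0 CPM in TGFB1 cells (4578 and 8560 UMIs), a ratio of 1.51 (1.46 to 1.57) that lay between 1.45 and 1.73 over the 19 alternatives. MT-ND6, the only protein gene on the light strand, had 17.3 and 24.8 CPM, a ratio of 1.43 (1.37 to 1.497). MT-ATP8 had 10.6 and 15.0 CPM, a ratio of 1.41 (1.33 to 1.497). MT-ND4L and MT-ATP8 share a message and some bases with a far more counted neighbour: MT-ND4L ends at base 10766 and MT-ND4 starts at base 10760, and MT-ATP8 ends at base 8572 and MT-ATP6 starts at base 8527. In each such pair, with library totals as the scale, the first gene was higher in the TGFB1 library and the second was not (both second genes are above 1 with median-of-ratios factors), and how the counting assigned reads from the shared bases was not tested. Without strand-aware counting, reads of MT-ND6 and of the opposite strand could not be told apart, and the sources used here do not give whether strand was used.

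**Figure D2:**
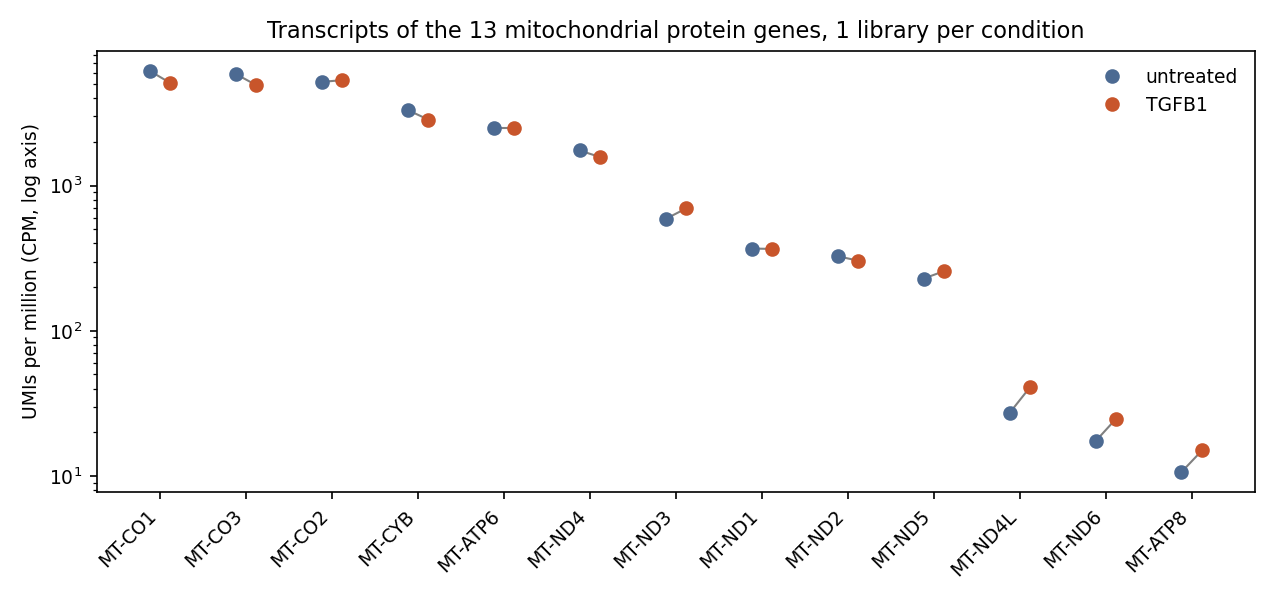
Level of each of the 13 mitochondrial protein genes (CPM, log axis) in the untreated and the TGFB1 library, ordered by the untreated level, with a line joining the 2 values of a gene. MT-CO1, MT-CO3 and MT-CYB are lower in the TGFB1 library and MT-ND4L, MT-ND6 and MT-ATP8, at the low end, are higher, with library totals as the scale.

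The mitochondrial share bears on which cells were deposited. No cell exceeded 5% mitochondrial UMIs (the highest were 4.996% and 4.998%), and this share counts exactly the 13 genes described here. Cells between 4.5% and 5% made up 4.94% of the untreated and 4.93% of the TGFB1 cells, so both distributions run up to the limit and cells beyond it are not analysed here. Over the deposited cells, the median cell had 2.66% mitochondrial UMIs if untreated and 2.49% after TGFB1, and 1.57% and 1.52% from nuclear subunits.

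**Figure D3:**
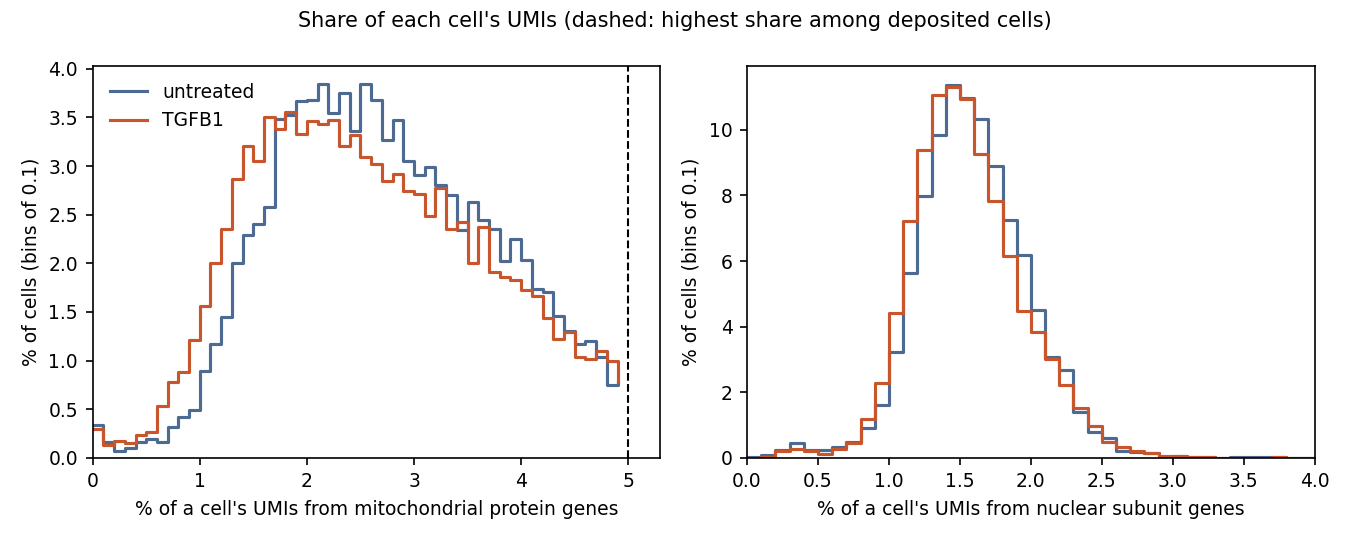
Distribution over cells of the share of a cell's UMIs that came from the 13 mitochondrial genes (left) and from the nuclear subunits (right), in % of cells per bin of 0.1. The mitochondrial share is cut at 5% (dashed line) in both libraries; the untreated median is 2.66% and the TGFB1 median 2.49%.

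The libraries also differed in depth, with 455 untreated and 3225 TGFB1 cells below 7500 UMIs, and the mitochondrial ratio differed between depth bins. Among those cells the mitochondrial sum was 28396 CPM in untreated and 29580.3 CPM in TGFB1 cells, a ratio of 1.04 (1.03 to 1.05). It was 0.861 among cells of 7500 to 15000 UMIs, 0.906 from 15000 to 25000 UMIs and 0.897 above. The nuclear ratio stayed between 0.962 and 1.01 over the same 4 bins. With each cell given equal weight, the mitochondrial ratio was 0.946 and the nuclear ratio 0.977.

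Within each library, the highest and lowest of the authors' clusters were further apart in both subunit sums than the libraries were from each other. Clusters are given here by library (U for untreated, T for TGFB1) and number, for the 14 groups of 50 cells or more, and are not named by cell type. The clusters were made from these same counts, so their differences are a description with no test. The nuclear sum ran from 11645 CPM in U9 to 18511 CPM in U2 in the untreated library, and from 12547 CPM in T9 to 19524 CPM in T4 in the TGFB1 library. The mitochondrial sum ran from 19591 CPM (U7) to 28154 CPM (U6) and from 17083 CPM (T7) to 30672 CPM (T5). T5 was a group of shallow cells, with a median of 2571 UMIs, and 10.8% of its cells lay between 4.5% and 5% mitochondrial UMIs.

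**Figure D4:**
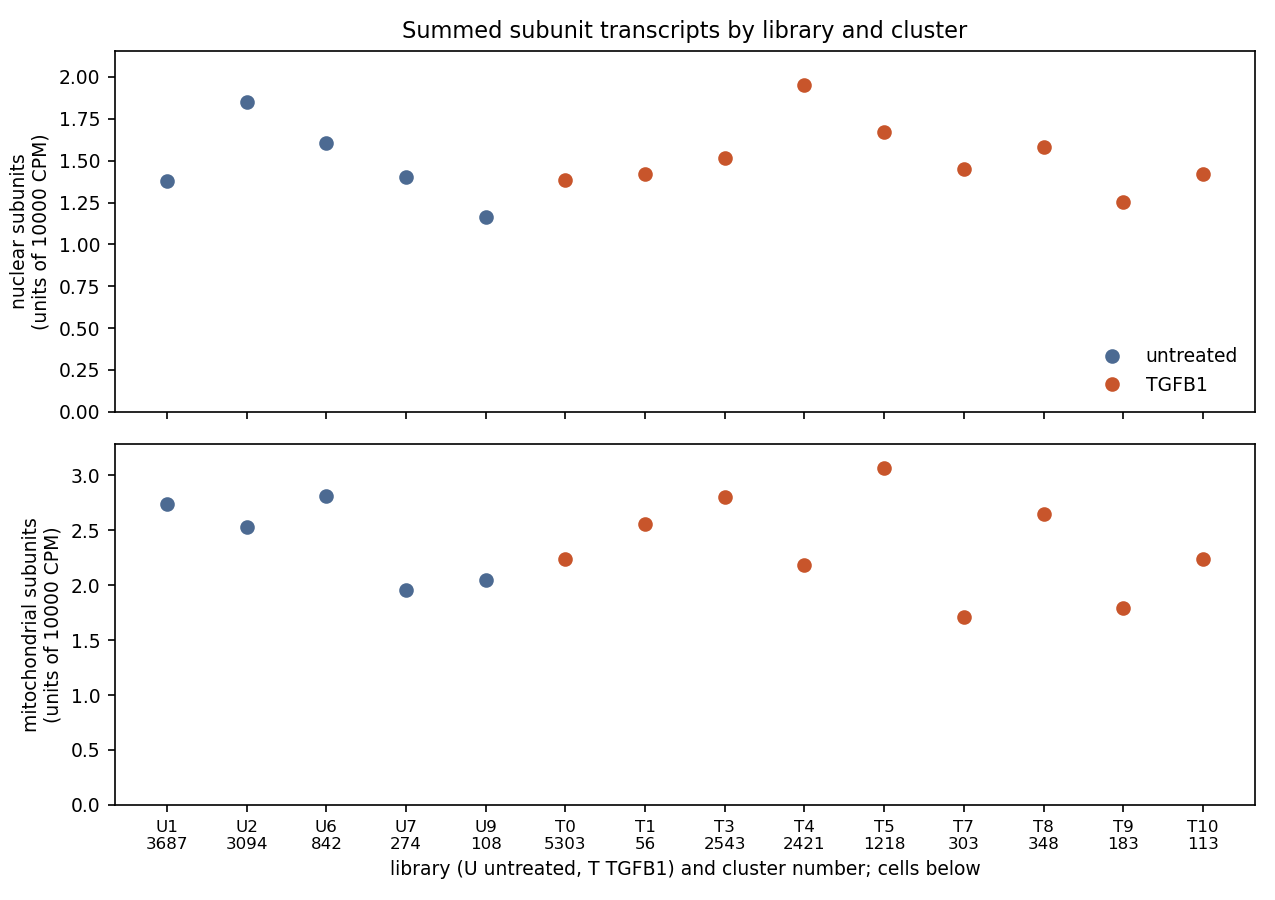
Summed CPM (axis in units of 10000 CPM) of the nuclear subunits (top) and the mitochondrial genes (bottom) in each library and cluster of 50 cells or more, with exact Poisson intervals, which are within the symbols. U2 (18511 CPM) and T4 (19524 CPM) are the highest for nuclear subunits, while T5 (30672 CPM) is the highest for mitochondrial genes.

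U2 and T4 were the groups with the highest nuclear subunit levels, 1 in each library. In U2, 77 of 80 nuclear members were above their level in the rest of the untreated library. In T4, 77 of 80 were above the rest of the TGFB1 library, and 76 were above in both. How many of all genes were above or below the rest in these groups was not worked out. U1 and U2 held 45.5% and 38.2% of the untreated cells, and in U1 79 of 80 members were below the rest. T0 had 79 of 80 below the rest as well. The ratio of sums to the rest was 1.31 in U2 and 1.35 in T4. The members' ratios in U2 and T4 ran alike (Pearson r = 0.874, Spearman 0.884, across 80 genes, which are not independent replicates). ATP5PO was the member furthest above the rest in U2 (1.45) and COX7A1 in T4 (1.58).

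The mitochondrial genes went the other way in these groups. The mitochondrial sum was 0.943 times the rest in U2 and 0.890 times in T4, with 13 of 13 and 12 of 13 genes lower. There were 137 mitochondrial UMIs per 100 nuclear subunit UMIs in U2 and 112 in T4, compared with 199 in U1 and 162 in T0, the largest cluster of each library. MT-ND6 showed it most, at 10.9 CPM in U2 and 10.8 CPM in T4 against 19.8 CPM in U1 and 30.5 CPM in T0. Its counts carry the limit on strand given above. Cytosolic ribosomal protein genes moved with the nuclear subunits, at 179320.2 CPM in U2 and 166333 CPM in T4, the highest of the 14 groups, and glycolysis genes were at 6024 and 6750 CPM. Their part in the subunit levels was not tested.

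NDUFS1 was the clearest exception among the nuclear members. It had 47.2 CPM in U2 and 50.5 CPM in T4, 0.770 and 0.746 times the rest of each library, where nearly all other complex I genes were above the rest. SDHA was below the rest in both as well, at 0.879 and 0.864 times.

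U6 and T8 were rich in dividing cells, since 86.6% and 80.2% of their cells held a UMI of MKI67 or TOP2A, compared with 11.4% in U1 and 7.05% in T0. Their nuclear sums were near the rest of the library (1.04 and 1.02 times), but the members split. In U6, 57 were above and 23 below the rest, and in T8, 55 and 25. The same split over all genes was not worked out. CYC1 was highest against the rest in both, at 96.0 CPM in U6 and 80.8 CPM in T8 (1.56 and 1.52 times). SDHA was 1.53 and 1.31 times the rest, UQCRFS1 1.39 and 1.41 times, COX8A 1.51 and 1.30 times and ATP5MC1 1.42 and 1.33 times. COX7A1 was below the rest in both (0.725 and 0.670 times), so the 2 forms of subunit 7A parted here: COX7A2 was 1.21 and 1.09 times the rest. The members' ratios in U6 and T8 ran alike too (Pearson r = 0.928, Spearman 0.884, across 80 genes). Those genes include NDUFA4L2, the lowest in both (0.459 and 0.402 times the rest), which counts as measured only through cluster 10.

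NDUFA4L2, a relative of NDUFA4 known as a hypoxia-responsive gene, was the most unevenly spread member. It had 180 CPM (157 to 204) in T10, a group of 113 cells, and this was 43.1 times its level in the rest of the TGFB1 library. It counts as measured only through cluster 10. The 33 untreated cells of the same cluster, too few for the group comparisons above, had 389 CPM (345 to 437). These small groups held 27.9% of all NDUFA4L2 UMIs of the untreated library and 21.4% of those of the TGFB1 library, and 1 cell alone had up to 57 UMIs. The whole libraries had 6.12 and 5.27 CPM, and without cluster 10 they had 4.43 and 4.17 CPM, a ratio of 0.940 (0.851 to 1.04). NDUFA4 itself, by contrast, was not raised in cluster 10 (0.861 times the rest of the TGFB1 library), and COX7A1 was (133 CPM, 1.46 times).

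**Figure D5:**
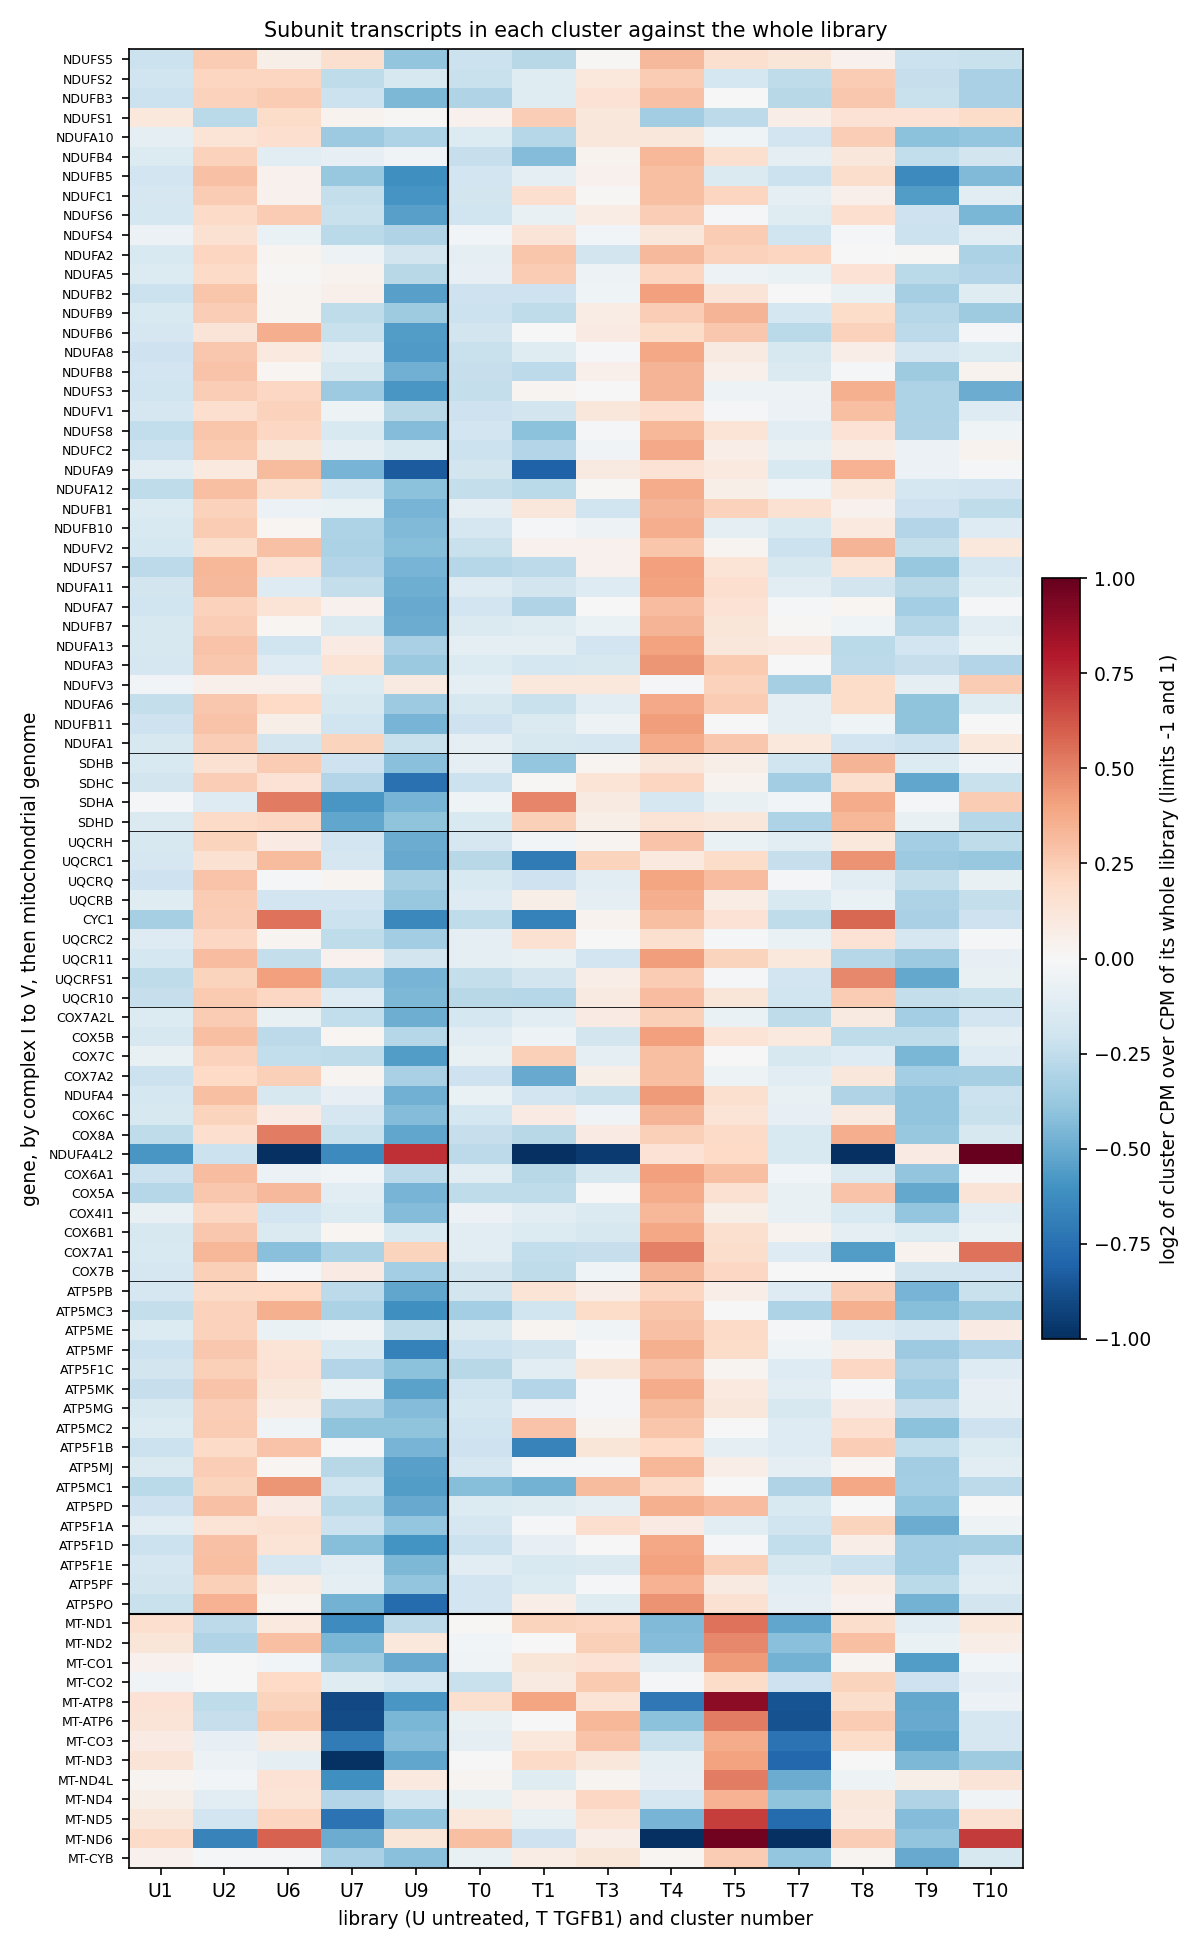
Log2 of the CPM of each measured member in a library and cluster over its CPM in the whole library, for the 80 nuclear members by complex and the 13 mitochondrial genes (below the thick line), with colours limited at -1 and 1. U2 and T4 are red for 77 of 80 nuclear members each and blue for most mitochondrial genes; NDUFS1 and SDHA are the pale or blue rows in both.

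Across the 14 groups the complexes ran together to different degrees, as a description over groups that share libraries. Pearson's r was 0.979 between the nuclear sums of complexes I and V, 0.961 between I and III, and 0.948 between I and IV. Complex II stood further off, with 0.704 against complex I and 0.495 against complex IV. The nuclear sum went with glycolysis genes (r = 0.877) and cytosolic ribosomal proteins (0.849) more than with the mitochondrial sum (0.392), while r was -0.047 with the median UMIs per cell.

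The libraries were also compared by pairs of clusters, beside ratios of 0.996 for the nuclear and 0.909 for the mitochondrial sum of the whole libraries. The mitochondrial ratio was below 1 in every pair except U1 and T3. In clusters 1, 7 and 9, which held at least 50 cells of both libraries, the nuclear sum was 1.03, 1.03 and 1.08 times as high in TGFB1 cells, and the mitochondrial sum was 0.932, 0.872 and 0.876 times. Between U2 and T4, matched here after seeing their subunit levels, the ratios were 1.05 and 0.861. Between the dividing groups U6 and T8 they were 0.986 and 0.940. Between the large groups U1 and T0 they were 1.00 and 0.819, but between U1 and T3 they were 1.10 and 1.02. These comparisons use UMI totals as the scale and 3 of them share U1. T5, with the highest mitochondrial sum, is in none of them.

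The genes at the ends of the range were also compared by cluster. This was done within clusters 1, 2, 7, 9 and 10, and between U1 and T0 and U2 and T4, which are different clusters. ATP5PO had 215 CPM in U1 and 130 CPM in T0, 319 CPM in U2 and 203 CPM in T4, 181 CPM in U7 and 140 CPM in T7, and 147 CPM in U9 and 107 CPM in T9. COX7A2 had 236 CPM in U1 and 345 CPM in T0, 316 CPM in U2 and 490 CPM in T4, 280 CPM in U7 and 368 CPM in T7, and 219 CPM in U9 and 315 CPM in T9. In each of these 4 pairs ATP5PO was lower and COX7A2 higher in the TGFB1 group. In cluster 1 ATP5PO had 215 CPM in untreated and 156 CPM in TGFB1 cells, and COX7A2 had 236 and 281 CPM, from 56 TGFB1 cells. In cluster 10, with 33 untreated cells, ATP5PO had 204 and 131 CPM, but COX7A2 was not higher, at 322 and 316 CPM. Within cluster 2, with 46 TGFB1 cells, ATP5PO was nearly level, at 319 CPM in untreated and 306 CPM (264 to 354) in TGFB1 cells. COX7A2 had 316 and 500 CPM there.

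The members' ratios also varied with annotated transcript length, taken as the median over a gene's transcripts in GENCODE release 29. The length of the messages that these cells expressed was not measured and can differ from it. Among the 27 nuclear members with the shortest annotated length (323 to 626 bases), the median log2 ratio was 0.08 and 16 were above 0. Among the 26 of middle length the median was -0.10 and 7 were above 0. Among the 27 with the longest (932 to 4502.5 bases) the median was -0.15 and 10 were above 0. The relation to length was negative among members (r = -0.224, Spearman -0.307, 80 genes) and weakly positive among all genes (r = 0.0798, Spearman 0.161, 10808 genes), as a description across genes that are not independent. These sign counts move with the scale as described above.

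Other genes of mitochondrial function and energy metabolism were described by list. Counts are of list members at 5 CPM or more and at least 1.5-fold apart, where 8.45% of all genes were higher and 14.2% lower. Over all 11 lists, 13 were higher and 18 lower with library totals, 24 and 8 under TMM scaling (11.7% of all genes higher and 9.99% lower), and 24 and 6 by the median of ratios (12.8% and 9.24%). The median log2 ratio stayed below 0 under all 3 scales for assembly factors, electron carriers and the mitochondrial ribosome, and above 0 for glycolysis and dynamics, while those of the other 6 lists changed sign.

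Of 62 assembly factors, 4 were higher and 2 lower (median log2 ratio -0.20), and 4 and 0 under each of the other 2 scales. COX17, the copper chaperone of complex IV, had 59.3 CPM in untreated and 120 CPM in TGFB1 cells, a ratio of 2.02 (1.97 to 2.07). UQCC6, an assembly factor of complex III, had 9.92 and 19.5 CPM, a ratio of 1.97 (1.86 to 2.08). CMC2 (40.4 and 74.6 CPM) and COX20 (64.5 and 111 CPM), which act in the making of complex IV, were higher too. PNKD (76.3 and 48.2 CPM) and the complex IV factor COA5 (35.6 and 23.1 CPM) were lower.

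Among 18 electron carriers and ubiquinone genes, none was higher and 5 were lower (1 and 3 under each of the other 2 scales), and the median log2 ratio was the lowest of the lists at -0.29. SQOR, which feeds electrons from sulfide into ubiquinone, had 28.1 CPM in untreated and 11.0 CPM in TGFB1 cells, a ratio of 0.390 (0.371 to 0.410). COQ2, an enzyme of ubiquinone synthesis, had 20.5 and 10.2 CPM, a ratio of 0.4995 (0.473 to 0.527). COQ10A, COQ8B and ETFDH, which passes electrons from fatty acid oxidation to ubiquinone, were lower as well (0.546, 0.604 and 0.622). CYCS, cytochrome c, was on the other side at 112 and 162 CPM.

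Of the carriers that move ADP and ATP across the inner membrane, SLC25A4 was higher and SLC25A5 and SLC25A6 were lower. SLC25A4, the form known from heart and muscle, had 49.8 CPM in untreated and 114 CPM in TGFB1 cells, a ratio of 2.30 (2.24 to 2.35). SLC25A5, the form of dividing cells, had 147 and 97.9 CPM, a ratio of 0.668 (0.656 to 0.680). SLC25A6, the most counted of these carriers, had 341 and 278 CPM, a ratio of 0.815 (0.805 to 0.824). UCP2, an uncoupling protein, had 5.53 and 18.2 CPM, a ratio of 3.28 (3.05 to 3.53), and SLC25A37, an iron carrier, had 28.1 and 17.7 CPM. Of the 22 measured carriers, 2 were higher and 1 lower at 1.5-fold (3 and 0 under each of the other 2 scales), and SLC25A5 fell just short of it.

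Glycolysis had the highest median log2 ratio, 0.29 over 20 genes, with 3 higher and none lower; 7 were higher under each of the other 2 scales. The 3 were PFKP, a phosphofructokinase (63.5 CPM in untreated and 174 CPM in TGFB1 cells), SLC2A1, the glucose transporter GLUT1 (7.03 and 16.6 CPM), and SLC16A3, a lactate exporter (28.6 and 52.0 CPM). LDHA, which makes lactate, was close to 1.5-fold at 724 and 1077 CPM. With library totals, 12 of the 20 genes were above a log2 ratio of 0 and 8 below. The sum of the list was 5001 CPM in untreated and 5444 CPM in TGFB1 cells, a ratio of 1.09. GAPDH, its most counted gene, had 1930 and 1763 CPM, PKM had 562 and 451 CPM, and LDHB had 309 and 229 CPM. None of the 24 tricarboxylic acid cycle genes passed 1.5-fold in either direction with library totals (median -0.05), but 4 were higher under each of the other 2 scales, and PDK1, a kinase that inhibits pyruvate dehydrogenase, had the highest ratio there at 10.5 and 15.4 CPM.

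For the mitochondrial ribosome, which translates the 13 mitochondrial messages, none of 77 genes was higher and 4 were lower (MRPS24, MRPL10, MRPS26 and MRPS30, with ratios from 0.542 to 0.649), of which TMM scaling kept 2 and the median of ratios 1, and the median was -0.23. None of 77 cytosolic ribosomal protein genes passed 1.5-fold (median -0.13), and 1 was higher under each of the other 2 scales. Of 25 genes for mitochondrial DNA upkeep and transcription, none was higher and TOP1MT and MGME1 were lower (0.596 and 0.652; 1 under TMM scaling and 0 by the median of ratios), with TFAM, which packages and transcribes mitochondrial DNA, at 24.6 and 17.1 CPM. Of 35 protein import genes, TIMM17A alone passed 1.5-fold, at 71.5 and 108 CPM.

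Of 17 regulators of mitochondrial biogenesis and oxygen response, HIF1A, the hypoxia-inducible factor subunit, was higher (419 CPM in untreated and 677 CPM in TGFB1 cells). Its relative EPAS1 (36.0 and 22.4 CPM) and the deacetylase SIRT3 (11.2 and 7.22 CPM) were lower, though not past 1.5-fold under the other 2 scales. Among 25 genes of mitochondrial dynamics and removal, BNIP3, a mitophagy receptor, had 147 and 273 CPM and DNM1L, the fission motor, 40.2 and 61.1 CPM, both higher. MFF, which recruits that motor to mitochondria, had 157 and 83.4 CPM and was lower.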

How the data were processed

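The authors deposited 1 matrix of raw UMI counts over both libraries. Their deposited cell table lists each cell's library and cluster number, its counts of UMIs and detected genes, and its mitochondrial percent. Cell Ranger 9.0.1, Seurat and GRCh38 appear in the submitters' processing notes, with no roles. The annotation, the kit's transcript end and any doublet removal were not stated in the sources used here, and no doublet caller was run. Cell sums of the matrix equalled the deposited UMI totals in all 20656 cells, and no cell exceeded 5% mitochondrial UMIs.

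UMIs were summed over the cells of a library or cluster and divided by that total to give CPM. Ratios carry exact conditional binomial (Clopper-Pearson) 95% intervals and single sums exact Poisson intervals, for counting error only. With 1 library per condition no test was possible, no p-value was computed and cells were not used as replicates. A count of 0 allows up to 3 UMIs. Genes were measured from 5 CPM in either library and called from 1.5-fold, or from 25% higher and 20% lower as an alternative. TMM factors (1.06 and 0.948) came from edgeR 4.0.16, and median-of-ratios factors were 1.07 and 0.936. DESeq2 was not used.

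The members, the lists and the rule for named genes were chosen with earlier results of these data known. Named genes were all mitochondrial members, nuclear members past 1.5-fold, in each complex the 2 highest and 2 lowest ratios and the 2 with most UMIs, the tissue isoform pairs, and up to 4 genes of each other list by absolute log2 ratio. Other genes were named after their values were seen. Some results are not reported here. The steps were tested on simulated data. Gene positions and lengths are from GENCODE release 29 (GRCh38), promoters from RefSeq (GRCh38.p14). A gene held a motif if any of its listed windows did. A longer form of the NRF1 letters, with 1 more base, was searched first; the shorter form was adopted for printing after that result had been seen, and both were more frequent among members than among all genes. Settings that leave out clusters 0, 1, 2, 3, 4, 6 or 8 were added after seeing the data. Software was R 4.3.3 and Python 3.11.15 with pandas 2.3.3, scipy 1.17.1, matplotlib 3.10.9 and numpy 2.4.6.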

Additional observations from a re-analysis of the deposited data

How the results depend on the processing

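With 1 library in each condition, no value could be checked against a replicate, and each alternative below was compared with the counting interval of the reported value. No paired analysis was possible because each condition is 1 library. With TMM factors the ratio of TGFB1 to untreated became 1.109 for the nuclear sum, 1.012 for the mitochondrial sum and 1.082, 0.938, 1.166, 1.147 and 1.094 for the nuclear sums of complexes I to V, the members' median log2 ratio became 0.095, 1 nuclear subunit (COX7A2) was at least 1.5-fold higher, and the lists had 24 genes higher and 8 lower. With median-of-ratios factors these values were 1.138, 1.038, 1.110, 0.963, 1.196, 1.176, 1.122 and 0.13. By that scale 3 subunits (COX7A2, COX7A1 and ATP5MK) were higher and 0 lower, and 24 list genes were higher and 6 lower. With a bar of 25% higher and 20% lower in place of 1.5-fold, 4 subunits were higher and 11 lower. Totals without mitochondrial genes gave 0.994 and 0.907 for the nuclear and mitochondrial sums, and totals without ribosomal protein genes 0.980 and 0.894.

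Equal weight per cell gave 0.977 and 0.946 for the 2 sums, 0.954, 0.825, 1.025, 1.016 and 0.960 for complexes I to V, and 0.968 for mitochondrial UMIs per 100 nuclear ones. Cells with 7500 UMIs or more gave 1.002 and 0.895, 0.977, 1.053, 1.035 and 0.988 for complexes I, III, IV and V, and 0.894 for the ratio of the genomes. Cells with at most 4% mitochondrial UMIs gave 0.993 for the nuclear sum, 0.968 for complex I and 0.915 for the ratio of the genomes, and cells with at most 3% gave 0.988, 0.961, 1.039, 1.022 and 0.976 for complexes I, III, IV and V, and 0.921. Without the cells holding MKI67 or TOP2A UMIs the results were 1.001 and 0.917 for the sums, 0.977, 0.854 and 0.990 for complexes I, II and V, and 0.916. Without cluster 5 the mitochondrial sum was 0.904 and the ratio of the genomes 0.909. The 7 settings that leave out 1 further cluster each were chosen after seeing the data, and each removes cells mostly from 1 library. Without clusters 0, 1, 2, 3, 4 and 6 in turn the nuclear ratio was 1.067, 0.8937, 1.092, 1.005, 0.9323 and 1.001. Without clusters 0, 1, 2, 3, 4, 6 and 8 the mitochondrial ratio was 0.9478, 0.9447, 0.8928, 0.8487, 0.9293, 0.9174 and 0.9052, and the ratio of the genomes 0.8883, 1.057, 0.8177, 0.8444, 0.9968, 0.9167 and 0.909. The members' median log2 ratio was -0.2094 without cluster 1, 0.07029 without cluster 2 and -0.1648 without cluster 4. At 1.5-fold, 1 subunit (COX7A2) was higher without cluster 0, 2 (COX7A1 and COX7A2) were higher and 0 lower without cluster 2, and 3 (ATP5PO, SDHD and NDUFA4L2) were lower without cluster 1. Counting NDUFA4 in complex I gave 0.991 for complex I and 1.007 for complex IV.

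The highest over the lowest cluster was 1.590 for nuclear and 1.437 for mitochondrial sums in the untreated library, and 1.556 and 1.795 in the TGFB1 library. These became 1.793, 1.332, 1.710 and 1.524 with equal weight per cell, and 1.552, 1.453, 1.514 and 1.687 in cells with 7500 UMIs or more. The cause of these shifts was not tested. Among single genes, only MT-ATP6, MT-CO2, MT-ND1, MT-ND2 and MT-ND4 of the 28 followed changed sides of 1 over 19 alternatives.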
